A study of Mus musculus with 12 samples.

Results

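The genes described here encode ligands and receptors of the platelet-derived growth factor (PDGF), vascular endothelial growth factor (VEGF) and angiopoietin families: Pdgfa, Pdgfb, Pdgfc, Pdgfra, Pdgfrb, Vegfa, Vegfc, Kdr, Angpt1 and Tek. They are 10 of the 18295 genes with a symbol on the array, and all their probes were taken, which gave 22 of 41174 gene probes. The members were chosen by their log2 ratios in the 3 groups of these same arrays, so the members' own values are given as a description, with no test of a single member. RNA was measured on 12 two-colour arrays of mature adipocytes of 3T3-L1, a clonal mouse preadipocyte line that fills with lipid once differentiated. The 4 arrays of the TIP60-si group carried cells that had received small interfering RNA against TIP60, a lysine acetyltransferase whose gene symbol is Kat5. The 4 of the USP7-si group had received it against Usp7, which encodes a deubiquitinating enzyme, and the 4 of the control-si group had received the control oligonucleotides. All groups were electroporated with the Amaxa system after differentiation and lysed 2 days later, so the knockdown was transient and the control cells went through the same handling. The labels give no oligonucleotide sequences and do not say whether replicates came from separate cultures, so any p-value below measures only the spread between these samples, which may be technical. Each array also carried, in the opposite dye, a common reference of undifferentiated 3T3-L1 RNA, so every level below is a log2 ratio of adipocytes over undifferentiated cells.

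PDGF ligands act as dimers on the receptor tyrosine kinases encoded by Pdgfra and Pdgfrb, drive growth and migration of mesenchymal cells, and Pdgfra marks the progenitors from which fat cells arise. Vegfa, which adipocytes secrete, drives blood vessel growth through the endothelial receptor encoded by Kdr, while Vegfc is best known for lymphatic growth. Angpt1 encodes angiopoietin-1, the ligand that activates the receptor TIE2, encoded by Tek and found mostly on endothelial cells.

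The 12 arrays correlated with each other at 0.85 to 0.96 over all gene probes, and on each array 85.2% to 98.3% of gene probes exceeded their local background by over 2 of its SDs in the sample dye, which is what above background means below. USP7-si replicate 4 stood apart: its median absolute log2 ratio was 0.055, against 0.109 to 0.148 on the other 11 arrays, so differences that involve USP7-si are also given without it where that ends a call or moves the value by over 1.5 times. Scaling arrays to equal spread, used below, gives each the same median absolute log2 ratio and so enlarges USP7-si replicate 4 the most. The targeted genes followed the labels. The Usp7 probe MMAB016154 averaged -1.76 in USP7-si and -0.11 in control-si, 32.0% of control-si (adjusted p = 1.2e-05), whereas its second probe MMAB029582 differed by 0.03 ± 0.062 (SE) and did not pass. Kat5 averaged -1.18 in TIP60-si and -0.18 in control-si (adjusted p = 1.2e-05). Adjusted p-values are from limma with Benjamini-Hochberg adjustment over all 41174 gene probes, and a probe is said to have passed, or to be called, where that value was below 0.05. Member probes are counted by this call as all probes are, but the count rests on values that chose them and nothing is read from it. Printed ratios are corrected for the dye that carried the sample.

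Against the undifferentiated reference, the brightest probes of the PDGF ligands and receptors and of Vegfc lay low in adipocytes and Vegfa lay high. Of the 22 probes, 12 were below the reference on all 12 arrays, 4 (the probes of Vegfa) were above it on all 12 and 6 lay on either side. In control-si, 3 probes averaged below -1 (Pdgfa with both probes, and Vegfc) and 1 averaged above 1 (Vegfa MMAB017403). Over all gene probes 1.23% lay below -1 and 1.99% above 1. Above background on all 12 arrays in the sample dye were 17 probes. The second probes of Pdgfb, Tek and Kdr cleared it on 6 arrays each and Angpt1 MMAB038856 on 7, and these 4 read under 2 times background in the median array. Angpt1 MMAB022274 cleared it on 10 arrays, at 17.8 times background. The reference is 1 RNA with no replicates, so no test was made of the levels against it. In these bulk samples fewer cells of a type and less RNA per cell cannot be told apart.

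**Figure D1:**
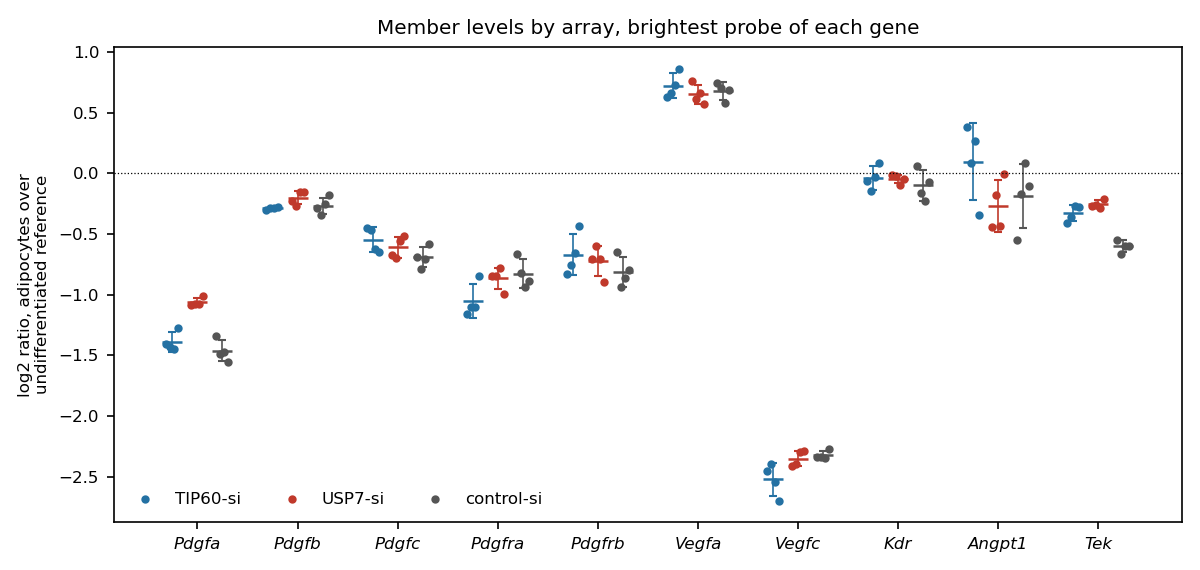
Log2 ratio of adipocytes over the undifferentiated reference for the brightest probe of each of the 10 genes, with 1 point per array (4 per group), a horizontal line at the mean and a bar of ± 1 SD. Vegfa is the gene above 0 on every array, Vegfc lies lowest at about -2.3 in control-si, and the USP7-si points of Pdgfa and both knockdown groups of Tek lie above control-si.

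Member differences were small, within 0.40 of 0 on the log2 scale on all 22 probes. By the call defined above, between TIP60-si and control-si, 1 of 22 was higher and 1 lower, when 3.78% of all gene probes passed in either direction (1.25% higher, 2.53% lower). Between USP7-si and control-si 2 were higher and 0 lower, against a background of 0.085% of all gene probes (0.0316% higher, 0.0534% lower). Between TIP60-si and USP7-si 2 were higher and 3 lower, against 7.38% of all gene probes (2.97% higher, 4.4% lower). At an unadjusted p below 0.05 there were 6, 4 and 9 member probes in the same order of comparisons, against 17.2%, 6.27% and 20.7% of all gene probes. The groups did not overlap for 3, 3 and 6 of the 22 probes, against 11.5%, 4.68% and 14.8% of all gene probes. The median log2 difference over the 22 probes was 0.05, 0.01 and 0.02, against -0.0013, 0.0010 and -0.0027 over all gene probes. Both knockdown comparisons use the same control-si arrays.

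**Figure D2:**
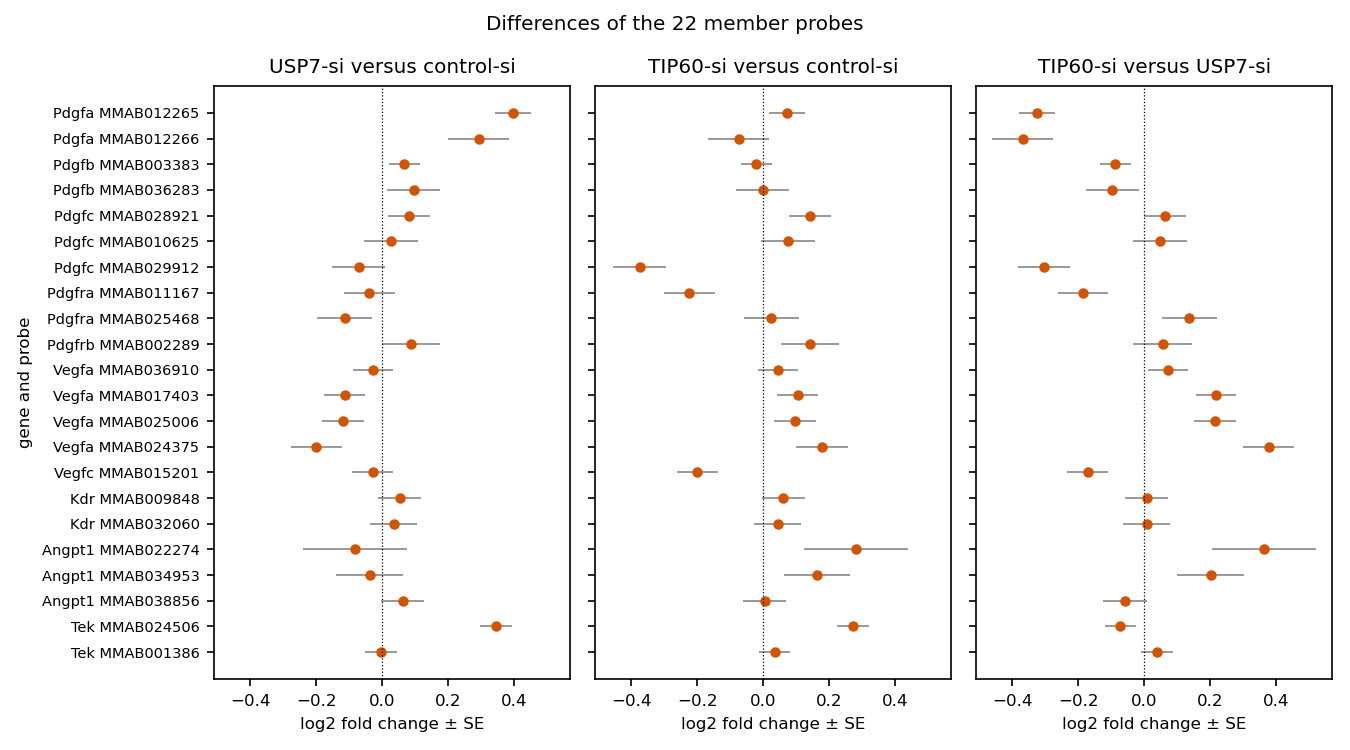
Log2 fold change ± SE of all 22 member probes in the 3 comparisons (first-named group over second). Tek MMAB024506 lies right of 0 in both knockdowns over control-si, Pdgfa MMAB012265 at 0.40 in USP7-si over control-si, and Vegfa MMAB024375 at 0.38 in TIP60-si over USP7-si. After scaling the arrays to equal spread, several points in the last panel change sign. They include those of Pdgfa and Vegfa MMAB017403, and also Vegfc, from -0.17 to 0.90.

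Pdgfa, the ligand that binds the alpha receptor, was lower in adipocytes than in undifferentiated cells in every group, and least so in USP7-si. Its brighter probe, MMAB012265, read -1.40, -1.43, -1.45 and -1.27 on the TIP60-si arrays (replicates 1 to 4), -1.08, -1.07, -1.08 and -1.01 on the USP7-si arrays, and -1.34, -1.49, -1.47 and -1.55 on the control-si arrays. The 4 USP7-si arrays lay above all 8 others, while TIP60-si and control-si overlapped. Group means were -1.39 ± 0.081 in TIP60-si, -1.06 ± 0.033 in USP7-si and -1.46 ± 0.089 in control-si (SD, n = 4 each), the last 2.75-fold below the reference. USP7-si was thus 0.40 ± 0.055 (SE) above control-si on the log2 scale, or 1.32-fold. TIP60-si was 0.07 ± 0.055 above control-si and 0.33 ± 0.055 below USP7-si, where the second turned to 0.19 with the arrays scaled to equal spread. Without USP7-si replicate 4 the excess over control-si was 0.38 and the difference between the knockdowns -0.31. With the arrays scaled the USP7-si excess shrank to 0.04.

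The dimmer Pdgfa probe, MMAB012266, read -1.22, -1.33, -1.32 and -1.21 in TIP60-si, -0.94, -1.07, -1.01 and -0.59 in USP7-si, and -1.07, -1.38, -1.18 and -1.17 in control-si. It again placed USP7-si highest, though its lowest array and the highest control-si array both rounded to -1.07. The USP7-si excess over control-si was 0.29 ± 0.093 (SE), and it was 0.18 without USP7-si replicate 4 and 0.05 with scaled arrays. TIP60-si was 0.37 ± 0.093 below USP7-si and 0.25 below without USP7-si replicate 4, but with arrays scaled to equal spread this difference was 0.02 in the other direction. Over the 12 arrays the 2 probes tracked each other with r = 0.79, given as a description. RefSeq lists a pair of Pdgfa starts on chromosome 5 (build GRCm38.p6, minus strand). The 250 bases before each are printed because Pdgfa is the ligand with a difference in the USP7-si comparison, with capitals marking the GC box GGGCGG on either strand, a motif found in 32.7% of 32851 mouse promoters of this length.
Pdgfa, chr5:138994282-138994531: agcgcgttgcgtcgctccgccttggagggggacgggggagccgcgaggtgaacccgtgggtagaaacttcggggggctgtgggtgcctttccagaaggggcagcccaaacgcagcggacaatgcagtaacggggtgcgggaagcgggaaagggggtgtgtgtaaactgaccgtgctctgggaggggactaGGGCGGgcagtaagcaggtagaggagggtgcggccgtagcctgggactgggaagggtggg
Pdgfa, chr5:138994945-138995194: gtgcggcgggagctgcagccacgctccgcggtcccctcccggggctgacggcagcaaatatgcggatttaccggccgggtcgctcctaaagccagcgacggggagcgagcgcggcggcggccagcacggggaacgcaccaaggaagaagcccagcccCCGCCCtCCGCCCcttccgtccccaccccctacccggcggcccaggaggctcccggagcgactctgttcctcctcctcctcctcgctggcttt
The first holds 1 GC box, 60 bases before the start, and the second holds 2, at 93 and 86 bases before it. Neither holds the early growth response motif GCGNGGGCG (4.7% of promoters), the AP-1 motif TGANTCA (6.75%), the hypoxia motif ACGTG (16.6%), a CArG box (1.47%), TATAAA (12.4%) or the GATA motif AGATAA (9.99%). These matches describe the letters in the window and are not sites shown to be bound.

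The 3 probes of Pdgfc, whose product must be cut by a protease before it can bind its receptor, did not move together. The dimmest, MMAB029912 (2.66 times background in the median array), read -0.53, -0.40, -0.82 and -0.69 in TIP60-si, -0.25, -0.45, -0.26 and -0.26 in USP7-si, and -0.26, -0.26, -0.18 and -0.24 in control-si. All TIP60-si arrays lay below all control-si arrays, whereas TIP60-si and USP7-si overlapped. TIP60-si was 0.37 ± 0.080 (SE) below control-si and 0.30 ± 0.080 below USP7-si. With scaled arrays these differences were -0.28 and -0.16, and the one from USP7-si was -0.29 without USP7-si replicate 4.

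The brighter Pdgfc probes read differently. MMAB028921 averaged -0.55 ± 0.10 in TIP60-si, -0.61 ± 0.089 in USP7-si and -0.69 ± 0.084 in control-si, and MMAB010625 averaged -0.79 ± 0.18 in TIP60-si, -0.84 ± 0.11 in USP7-si and -0.87 ± 0.063 in control-si. Their TIP60-si differences from control-si were 0.14 ± 0.064 and 0.08 ± 0.082 (SE), both upward. Correlations over the 12 arrays were 0.73 between these 2 probes, and -0.16 and 0.23 of each with MMAB029912, so the gene has no direction on which its probes meet.

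Pdgfb, the ligand that vessel-forming cells use to recruit pericytes, differed little between groups. Its brighter probe, MMAB003383, averaged -0.29 ± 0.012 in TIP60-si, -0.20 ± 0.056 in USP7-si and -0.27 ± 0.067 in control-si. The control-si range of -0.34 to -0.18 spanned all 4 TIP60-si arrays. The second probe, near background, averaged -0.51, -0.42 and -0.51 in the same order of groups.

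**Figure D3:**
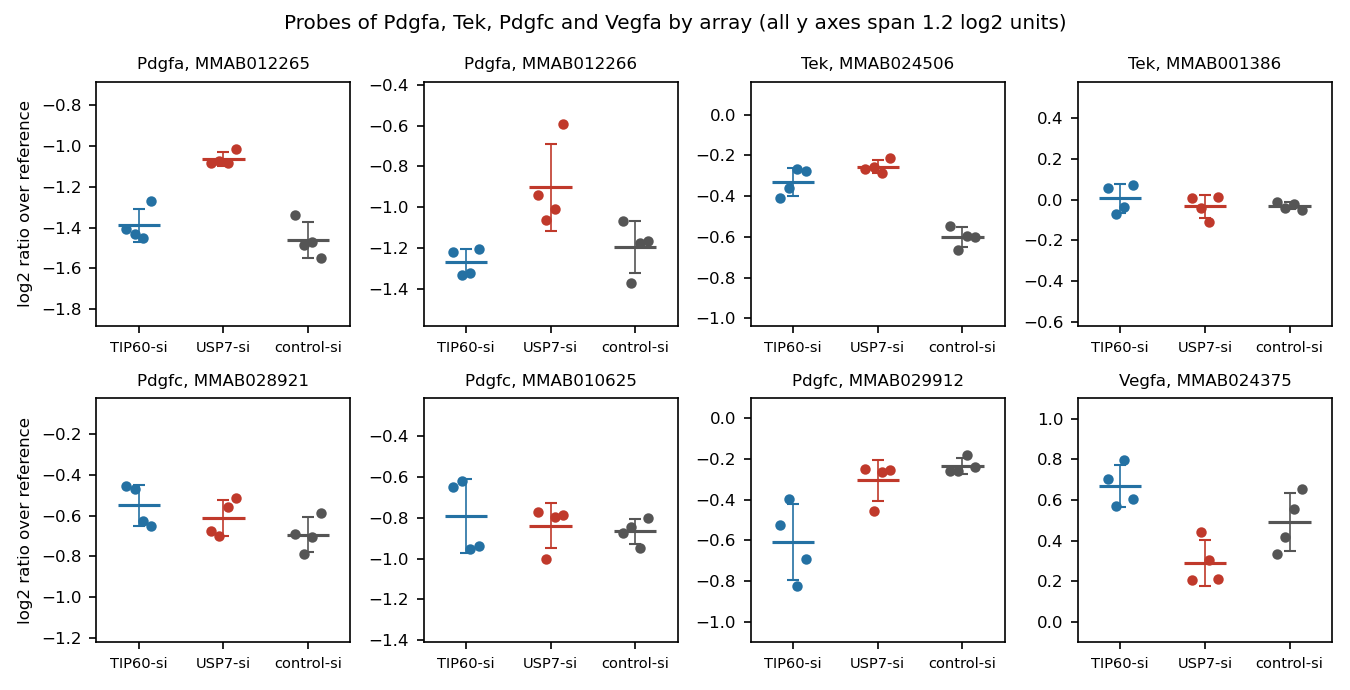
Log2 ratio over the reference by array for the probes of Pdgfa, Tek and Pdgfc and for Vegfa MMAB024375, with 1 point per array, a line at the mean and a bar of ± 1 SD, and every vertical axis spanning 1.2 log2 units. The 4 USP7-si arrays of Pdgfa MMAB012265 and all 8 knockdown arrays of Tek MMAB024506 lie above control-si, while Tek MMAB001386 sits near 0 in all groups and the lower TIP60-si values of Pdgfc appear on MMAB029912 and not on its other 2 probes.

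The alpha receptor gene Pdgfra, a marker of fat progenitors, had 2 probes that did not move together. The bright probe, MMAB011167, at 131 times background in the median array, read -1.16, -1.10, -1.10 and -0.84 in TIP60-si, -0.85, -0.84, -0.78 and -0.99 in USP7-si, and -0.66, -0.83, -0.94 and -0.88 in control-si. In TIP60-si 3 arrays lay below all arrays of the other groups and replicate 4 lay among them. The difference from control-si was -0.22 ± 0.077 (SE), and it was -0.30 without TIP60-si replicate 4 and -0.10 with scaled arrays. USP7-si differed from control-si by -0.04 ± 0.077, which was 0.0082 without USP7-si replicate 4 and -0.39 with scaled arrays. The dim probe, MMAB025468, at 4.02 times background, averaged 0.16 ± 0.13 in TIP60-si, 0.02 ± 0.077 in USP7-si and 0.14 ± 0.17 in control-si, and its correlation with the bright probe over 12 arrays was -0.65. On the dim probe TIP60-si and USP7-si differed from control-si by 0.02 ± 0.084 and -0.11 ± 0.084 (SE). The beta receptor gene Pdgfrb, which marks pericytes and stromal cells, read -0.83, -0.75, -0.66 and -0.44 in TIP60-si, -0.71, -0.60, -0.70 and -0.89 in USP7-si, and -0.65, -0.94, -0.87 and -0.80 in control-si. The groups overlapped throughout, and TIP60-si and USP7-si stood 0.14 ± 0.088 and 0.09 ± 0.088 (SE) above control-si, the second of which was 0.15 without USP7-si replicate 4 and turned to -0.22 with scaled arrays.

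Vegfa was the gene above the reference on every array, and its probes differed more between the knockdowns than from control-si. MMAB017403 averaged 1.51 ± 0.12 in TIP60-si, 1.29 ± 0.042 in USP7-si and 1.40 ± 0.088 in control-si, the last 2.65-fold above the reference. MMAB024375, at 4.04 times background, read 0.70, 0.57, 0.80 and 0.60 in TIP60-si, 0.21, 0.44, 0.30 and 0.21 in USP7-si, and 0.34, 0.42, 0.56 and 0.65 in control-si. On it every TIP60-si array lay above every USP7-si array, and control-si overlapped both. TIP60-si exceeded USP7-si by 0.38 ± 0.078 (SE) on MMAB024375, or by 0.35 without USP7-si replicate 4 and 0.21 with scaled arrays. On MMAB017403 TIP60-si exceeded USP7-si by 0.22 ± 0.062, which was 0.21 without USP7-si replicate 4 and turned to -0.39 with the arrays scaled to equal spread. On MMAB025006 the groups again did not overlap and the excess was 0.22 ± 0.063, the same to 2 decimals without USP7-si replicate 4, and -0.09 with scaled arrays. The brightest probe, MMAB036910, averaged 0.72 ± 0.10 in TIP60-si, 0.65 ± 0.080 in USP7-si and 0.68 ± 0.073 in control-si, so its 3 groups did not separate. In the authors' deposited ratios, fitted with the same model, the excess of TIP60-si over USP7-si was 0.29 on MMAB024375 and 0.18 on MMAB017403.

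Vegfc had the lowest ratio of the members. It read -2.45, -2.39, -2.54 and -2.70 in TIP60-si, -2.42, -2.40, -2.30 and -2.29 in USP7-si, and -2.33, -2.34, -2.35 and -2.27 in control-si, the last of which average 0.20 of the reference. The 4 TIP60-si arrays lay below the 4 control-si arrays, and USP7-si overlapped both. TIP60-si differed from control-si by -0.20 ± 0.062 (SE), and USP7-si by -0.03 ± 0.062, or -0.05 without USP7-si replicate 4. With the arrays scaled to equal spread these differences were 0.10 and -0.80.

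Kdr, the main signalling receptor for Vegfa, was close to background and close to the reference. MMAB009848, at 2.41 times background, averaged -0.04 ± 0.098 in TIP60-si, -0.05 ± 0.034 in USP7-si and -0.10 ± 0.13 in control-si, and the groups overlapped. Pdgfra, Kit and Kdr are neighbours on mouse chromosome 5, and the control-si ratios of the first and the last were -0.83 and -0.10 on their brighter probes.

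Angpt1 varied more within groups than any other member. Its brightest probe, MMAB022274, read 0.38, 0.09, 0.26 and -0.34 in TIP60-si, -0.45, -0.18, -0.44 and -0.01 in USP7-si, and -0.55, -0.17, 0.08 and -0.10 in control-si. The groups overlapped, and TIP60-si was 0.28 ± 0.16 (SE) above control-si and 0.36 ± 0.16 above USP7-si. Between the knockdowns the difference was 0.76 on the arrays with the sample in Cy3 and -0.03 on those with it in Cy5. From control-si the TIP60-si difference was 0.55 in Cy3 and 0.0096 in Cy5, so both were near 0 in 1 dye orientation. MMAB034953 followed MMAB022274 across the 12 arrays (r = 0.96) with smaller differences of 0.16 ± 0.10 and 0.20 ± 0.10, and the near-background MMAB038856 did not (r = -0.19). The 2 differences of MMAB034953 were 0.29 and 0.43 in Cy3 and 0.03 and -0.02 in Cy5.

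Tek was the member whose brighter probe stood higher in both knockdowns with no overlap. Its measurable probe, MMAB024506, at 6.86 times background, read -0.41, -0.36, -0.27 and -0.28 in TIP60-si, -0.27, -0.26, -0.29 and -0.21 in USP7-si, and -0.55, -0.66, -0.60 and -0.60 in control-si. All 8 knockdown arrays lay above all 4 control-si arrays, and the knockdowns overlapped each other. Means were -0.33 ± 0.069 in TIP60-si, -0.26 ± 0.031 in USP7-si and -0.60 ± 0.048 in control-si (SD, n = 4 each). TIP60-si was 0.27 ± 0.047 (SE) above control-si, or 1.21-fold, and USP7-si 0.35 ± 0.047 above it, or 1.27-fold. Without USP7-si replicate 4 the USP7-si excess was 0.33, and with scaled arrays the excesses were 0.30 and 0.28. Within dye orientations the TIP60-si excess was 0.23 in Cy3 and 0.31 in Cy5, and the USP7-si excess 0.30 and 0.40, with 2 arrays a group. TIP60-si and USP7-si differed by -0.07 ± 0.047, or 0.03 with scaled arrays. The second probe, MMAB001386, was above background on 6 arrays and averaged 0.01 ± 0.070, -0.03 ± 0.058 and -0.03 ± 0.017 in TIP60-si, USP7-si and control-si, so the difference rests on 1 probe.
The 250 bases before the Tek start (GRCm38.p6, chromosome 4, plus strand) are printed because Tek MMAB024506 read above control-si on all arrays of both knockdowns.
Tek, chr4:94739039-94739288: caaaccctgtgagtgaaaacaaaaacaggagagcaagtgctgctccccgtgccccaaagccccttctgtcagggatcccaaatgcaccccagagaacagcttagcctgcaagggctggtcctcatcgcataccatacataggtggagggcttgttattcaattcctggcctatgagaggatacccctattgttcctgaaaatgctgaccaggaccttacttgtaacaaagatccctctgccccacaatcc
They hold 0 matches to any of the 7 motifs searched in the Pdgfa windows.

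Tek and Kdr are endothelial genes in tissue, and the endothelial marker genes lay near the reference here. All 15 were measured, and 8 were above background on all arrays and over 3 times background in the median array. The brightest were Plvap (11.4 times background), Vwf (6.10) and Cldn5 (6.05), against 6.86 for Tek MMAB024506. Pecam1 cleared background on 9 arrays and Cdh5 on 11, at 2.06 and 1.95 times background. Background-subtracted intensities of 15 genes summed to 1579 to 2743 per array in TIP60-si, 1698 to 2677 in USP7-si and 1243 to 2073 in control-si. Their median log2 ratios ran from -0.060 to -0.035, from -0.044 to 0.0083 and from -0.078 to -0.019 in the same order. None of the 15 passed against control-si in either knockdown, where 3.78% (TIP60-si) and 0.085% (USP7-si) of all gene probes did. Between the knockdowns Emcn was 0.18 ± 0.050 (SE) higher and Robo4 0.34 ± 0.052 lower in TIP60-si than in USP7-si. Without USP7-si replicate 4 Emcn did not pass (adjusted p = 0.096, limma), and with scaled arrays it was 0.087. The part of these markers in the Tek difference was not tested.

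Adipocyte markers followed the label, with median log2 ratios over the reference of 3.65 to 4.02 per array in TIP60-si, 3.25 to 3.55 in USP7-si and 3.34 to 3.66 in control-si. Of the 12, 1 passed between TIP60-si and control-si (Pnpla2, the lipase that starts triglyceride breakdown, 0.39 ± 0.10 higher, but -0.16 with arrays scaled to equal spread) and 3 between TIP60-si and USP7-si. Those were Pnpla2 (0.38 ± 0.10), Lipe, a second lipase (0.63 ± 0.13), and Cidec, a lipid droplet protein (0.54 ± 0.12), all higher in TIP60-si but lower there with scaled arrays (-1.49, -0.45 and -1.62), and Pnpla2 did not pass without USP7-si replicate 4 (adjusted p = 0.11, limma). Of 11 preadipocyte markers Thy1 was 0.26 ± 0.058 higher in TIP60-si than in control-si and 0.25 ± 0.058 higher than in USP7-si (0.15 and 0.043 with scaled arrays, neither passing, and the second not passing without USP7-si replicate 4 either), and Col1a1 was 0.48 ± 0.13 lower in TIP60-si than in USP7-si (0.081 with scaled arrays). The other 2 Col1a1 probes differed by -0.29 to 0.18 and none passed. The second Thy1 probe was 0.52 and 0.61 higher and passed in both comparisons. None of the 11 mural cell markers and none of the 7 macrophage markers passed in any of the 3 comparisons by limma. In the order TIP60-si against control-si, USP7-si against control-si and TIP60-si against USP7-si, 0, 0 and 3 mural markers had an unadjusted p below 0.05. For macrophage markers the counts were 1, 2 and 0. Over all gene probes 17.2%, 6.27% and 20.7% had such a p, and 3.78%, 0.085% and 7.38% passed. The mural genes with the smallest p were Acta2 and Des, 0.36 ± 0.11 and 0.14 ± 0.057 (SE) higher in TIP60-si than in USP7-si (adjusted p = 0.061 and 0.18, limma), and Des was 0.053 with scaled arrays. The macrophage genes were Csf1r, 0.36 ± 0.097 higher in TIP60-si than in control-si (adjusted p = 0.057, limma) and 0.23 with scaled arrays, and Adgre1, 0.15 ± 0.061 higher in USP7-si than in control-si (adjusted p = 0.69, limma). The part of these shifts in the Pdgfa and Vegfa differences between the knockdowns was not tested.

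The authors' deposited ratios are the values by which the members were chosen. In these deposited ratios of the authors Pdgfa MMAB012265 averaged -1.39 ± 0.083 in TIP60-si, -1.07 ± 0.031 in USP7-si and -1.47 ± 0.11 in control-si, and MMAB012266 averaged -1.33 ± 0.081, -1.03 ± 0.061 and -1.23 ± 0.12. The authors' deposited ratios of Tek MMAB024506 averaged -0.34 ± 0.064 in TIP60-si, -0.29 ± 0.040 in USP7-si and -0.62 ± 0.052 in control-si, and those of MMAB001386 0.00 ± 0.075, -0.0050 ± 0.076 and -0.05 ± 0.044. Fitted with the same model, the authors' deposited ratios put Pdgfa MMAB012265 0.40 and Tek MMAB024506 0.33 above control-si in USP7-si, and Tek 0.28 above it in TIP60-si.

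**Figure D4:**
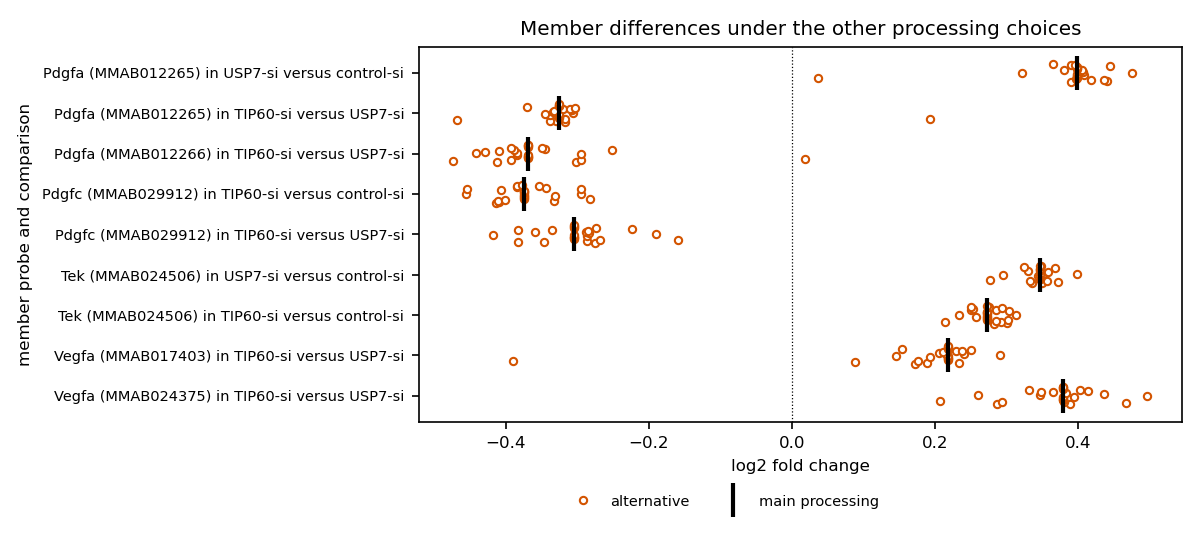
Log2 fold change of each member probe and comparison counted as called (first-named group over second) under up to 26 other processing choices, 1 open point each, with a black tick at the value in the text. Tek in TIP60-si versus control-si stayed between 0.21 and 0.31, and the points on the far side of 0 are Pdgfa and Vegfa MMAB017403 with arrays scaled to equal spread.

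Other genes of the families, of their signalling and of the hypoxia response gave 84 measured genes of 87 listed, each represented by its brightest probe. Between TIP60-si and control-si 4 were higher and 6 lower, where 3.78% of all gene probes passed. Between USP7-si and control-si 0 passed by limma, against 0.085% of all gene probes. There 16 had an unadjusted p below 0.05, against 6.27% of all gene probes. Between TIP60-si and control-si 29 had such a p, against 17.2% of all gene probes. Between TIP60-si and USP7-si 30 had one, against 20.7%. Between TIP60-si and USP7-si 2 were higher and 8 lower, against 7.38% of all gene probes. The median log2 difference of the 84 was -0.04, 0.02 and -0.02 in the same order, against -0.0013, 0.0010 and -0.0027 over all gene probes. With arrays scaled to equal spread 2 of these 20 called differences still passed, Ankrd37 between TIP60-si and control-si and Nck1 between the knockdowns. Of 21 other settings, fewer than 10 left a call for Flt1 (9), Ptpn11 (9), Nck1 (8) and Pdk1 (8) between TIP60-si and control-si, and for Ptpn11 (8) and Fyn (3) between the knockdowns. Without USP7-si replicate 4, Sparc, Shc1, Ptpn11, Fyn and Aldoa no longer passed between the knockdowns.

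Of 7 further VEGF family genes 3 passed between TIP60-si and control-si, all receptors or co-receptors, against 3.78% of all gene probes. Nrp1, which encodes a VEGF co-receptor, averaged -0.13 ± 0.17 in TIP60-si and -0.54 ± 0.089 in control-si (SD), a difference of 0.41 ± 0.083 (SE, adjusted p = 0.014, limma), and 1 of its 4 other probes passed too. Nrp2, the co-receptor linked to Vegfc, was 0.25 ± 0.056 higher (adjusted p = 0.027, limma), but its second probe differed by -0.03. Flt1, a high-affinity VEGF receptor that can act as a decoy, was 0.20 ± 0.050 lower in TIP60-si than in control-si (adjusted p = 0.039, limma) and 0.35 ± 0.050 lower than in USP7-si (adjusted p = 0.0015, limma), the second of which was -0.21 with scaled arrays. The 4 other Flt1 probes differed by -0.19 to 0.08 from control-si, none passing, and by -0.38 to 0.10 from USP7-si, where 1 passed. Vegfb, Vegfd, Pgf and Flt4 did not pass in any comparison. Of 4 further angiopoietin and TIE genes, Angpt4, another ligand of the receptor encoded by Tek, averaged -0.32 ± 0.054 in TIP60-si and -0.65 ± 0.12 in control-si, 0.33 ± 0.066 higher (adjusted p = 0.014, limma), and its second probe was 0.38 higher and passed. Tie1, Angpt2 and Ptprb did not pass.

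Of the other PDGF genes, Pdgfrl, which encodes a PDGF receptor-like protein, averaged -1.75 ± 0.094 in TIP60-si, -1.36 ± 0.15 in USP7-si and -1.40 ± 0.037 in control-si. It was 0.35 ± 0.070 lower in TIP60-si than in control-si (adjusted p = 0.013, limma) and 0.39 ± 0.070 lower than in USP7-si (adjusted p = 0.0051, limma), which with scaled arrays were -0.14 and, in the other direction, 0.26, and its second probe differed by -0.11 and -0.12 without passing. Pdgfd did not pass. Of 10 ligand-processing and ligand-binding genes only Sparc, a matrix protein that binds PDGF, passed in any of the 3 comparisons: it was 0.35 ± 0.086 lower in TIP60-si than in USP7-si (adjusted p = 0.025, limma), and 0.09 higher with scaled arrays.

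Downstream of the receptors, 2 of 29 measured signalling genes were lower in TIP60-si than in control-si and 0 higher. Over all gene probes 3.78% passed there (1.25% higher, 2.53% lower). They were Ptpn11, a phosphatase that carries receptor signals to Ras (-0.34 ± 0.084, adjusted p = 0.039, limma), and the adaptor Nck1 (-0.24 ± 0.061, adjusted p = 0.044, limma). Against USP7-si, TIP60-si was lower for Ptpn11 (-0.30), Nck1 (-0.33), the adaptor Shc1 (-0.25) and the kinase Fyn (-0.19) and higher for the phospholipase Plcg1 (0.30). Scaled arrays gave -0.12 for Shc1, -0.06 for Fyn and the other direction, -0.06, for Plcg1. The 3 other Ptpn11 probes differed by -0.31 to -0.06 from control-si, none passing, and by -0.34 to -0.0093 from USP7-si, where 1 passed. The second Fyn probe differed by -0.04 from USP7-si without passing. Of 3 other Nck1 probes 1 passed against control-si and 2 against USP7-si, and of 2 other Plcg1 probes 1 passed against USP7-si. Of 12 feedback inhibitors 1 passed against control-si, Spry4, which dampens Ras signalling (1.78 ± 0.22 in TIP60-si and 1.35 ± 0.058 in control-si, 0.43 ± 0.10 higher, adjusted p = 0.030, limma). Its second probe differed by 0.04, and scaled arrays gave 0.20.

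In the hypoxia response, which controls Vegfa in many cells, 2 of 20 genes were lower in TIP60-si than in control-si and 0 higher. Of all gene probes 2.53% were called lower and 1.25% higher. Ankrd37, a target of hypoxia-inducible factor, averaged 0.78 ± 0.064 in TIP60-si, 0.84 ± 0.21 in USP7-si and 1.25 ± 0.15 in control-si. TIP60-si was 0.47 ± 0.095 below control-si (adjusted p = 0.014, limma), and USP7-si 0.41 ± 0.095 below it, which did not pass (adjusted p = 0.23, limma) and was -0.23 with scaled arrays. Pdk1, which limits pyruvate entry into mitochondria, was 0.31 ± 0.078 lower in TIP60-si (adjusted p = 0.044, limma), as was its second probe, by 0.31. Between the knockdowns Arnt, the partner subunit of hypoxia-inducible factors, was 0.33 ± 0.083 lower and the glycolytic Aldoa 0.28 ± 0.066 higher in TIP60-si, where scaled arrays gave -0.09 for both, the other direction for Aldoa. The other 4 Arnt probes differed by -0.12 to 0.05 and none passed. The median difference of the 20 genes from control-si was -0.11 in TIP60-si and -0.09 in USP7-si.

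**Figure D5:**
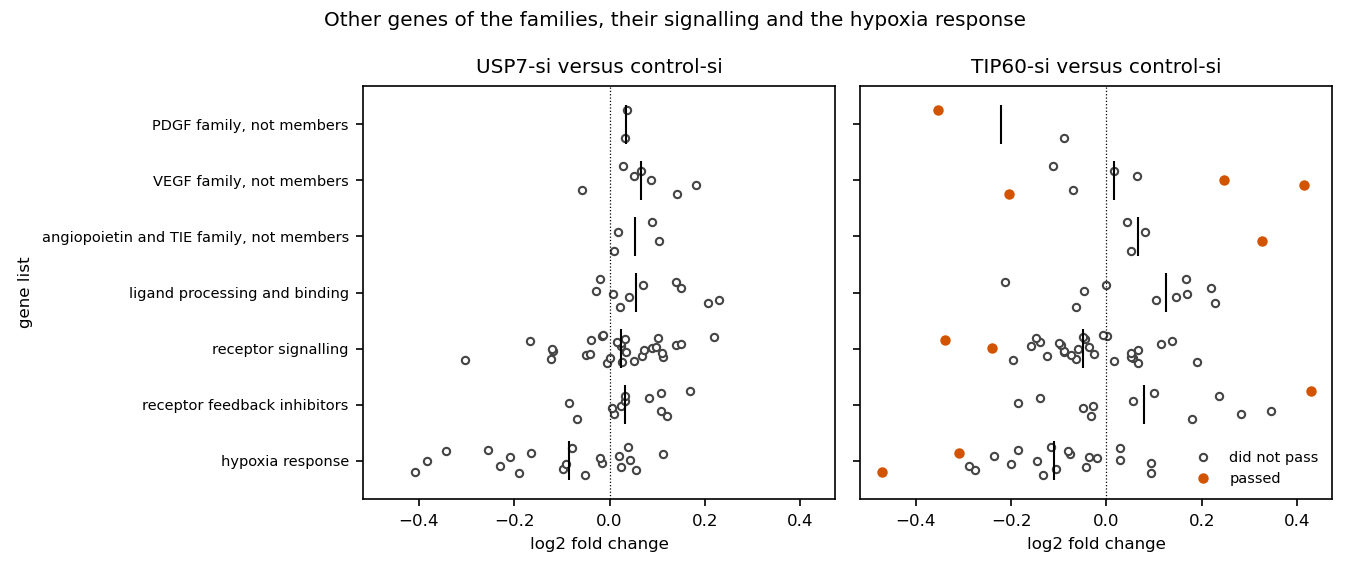
Log2 fold change against control-si of the 84 other measured pathway genes by list, with 1 point per gene, filled where it passed, and a black tick at each list's median. In USP7-si versus control-si no point is filled, and in TIP60-si versus control-si the 10 filled points are Pdgfrl, Flt1, Nrp1, Nrp2, Angpt4, Ptpn11, Nck1, Spry4, Ankrd37 and Pdk1.

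As a description, the probes most like each member's brightest probe were found among 25938 probes above background on all 12 arrays. For Pdgfa MMAB012265 they were those of Glb1l (r = 0.956 over 12 arrays) and Prkar2a (0.943). For Tek MMAB024506 they were Nek6 and Olfr598 (both 0.887), for Vegfa MMAB036910 Scrt2 (0.917) and F8 (0.915), and for Vegfc Pla2g4a (0.960) and Airn (0.956). For Angpt1 they were Cul1 (0.979) and Mdm2 (0.978), for Kdr Rnase9 (0.929) and Arf3 (0.920), and for Pdgfb P4ha1 (0.923) and Samd1 (0.909). For Pdgfc MMAB028921 they were Efl1 (0.897) and Pakap (0.885), for Pdgfra Ttc28 (0.954) and Thrap3 (0.953), and for Pdgfrb Clptm1 (0.942) and Tmbim6 (0.940). With 12 arrays in 3 groups and 2 dye orientations, the points share these groups and dyes. The probes named were picked as the highest correlations of 25938, and how high these would run among unrelated probes was not tested.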

How the data were processed

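Adipocyte RNA of 12 samples was measured against a common reference on two-colour arrays, with replicates 1 and 3 of each group labelled with Cy3 and replicates 2 and 4 with Cy5. Per the deposited protocol text, the authors read the spots with Imagene and normalized by print-tip loess, leaving the background uncorrected. Deposited scanner files hold spot and background intensity in both dyes on a linear scale, and normalized files hold the intensity the authors normalized. The authors' value table holds log2 ratios, equal to log2 of sample over reference in the normalized files to within 5e-06, which settled scale and direction, and its column medians ran from -0.012 to 0.0071.

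Scanner intensities were corrected with normexp (offset 50) and normalized by loess within arrays, control spots at weight 0, in limma 3.58.1 under R 4.3.3. A model over 12 arrays had group and dye as terms, followed by eBayes, with two-sided tests and Benjamini-Hochberg adjustment over 41174 gene probes. The number of arrays limits the precision. Probe symbols came from the platform annotation. All member probes are named, then Usp7 and Kat5, the called genes of each list (the 2 with the smallest p where a list had none) and the 2 nearest probes of each member. The members and lists were chosen with earlier results of these data known, so single members were not tested. Alternatives covered background correction, normalization, the authors' ratios, scaling, low-signal filter, dye, replicate block, weights, eBayes settings and leaving out each array.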

Additional observations from a re-analysis of the deposited data

Results flagged for a closer look

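Of 66 sets of 4 arrays (22 probes in 3 groups), 5 held an array far from the other 3 by Dixon's criterion, and chance gives about 1 in 20. Pdgfa MMAB012265 read -1.01 on USP7-si replicate 4, against -1.08 to -1.07 on the other USP7-si arrays. Pdgfc read -1.004 on USP7-si replicate 2 with MMAB010625, against -0.80 to -0.77, and -0.45 on the same array with MMAB029912, against -0.26 to -0.25. Angpt1 MMAB038856 read -0.35 on control-si replicate 2, against -0.11 to -0.07. Vegfc read -2.27 on control-si replicate 4, against -2.35 to -2.33.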

How the results depend on the processing

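Up to 26 other settings were tried, and the slide or scan batch was not run because the files give none. Directions are called reversed only where a probe passed under the main processing or the alternative. Member probes called, 2 for TIP60-si versus control-si, were 1 with plain background subtraction, normexp offset 16, scaled arrays or no dye term, 0 with median centring or within either dye orientation, and 1 to 3 with each array left out. The 2 called for USP7-si versus control-si were 1 with offset 16, no dye term or eBayes with trend and robust, 0 with plain subtraction, median centring, scaled arrays or within either dye, and 0 to 2 with each array left out (0 without USP7-si replicates 1 or 4 or control-si replicates 2 or 4). The 5 for TIP60-si versus USP7-si were 3 with the authors' ratios or Cy3 alone, 2 with no background correction, plain subtraction or no dye term, 0 with median centring, scaled arrays or Cy5 alone, and 2 to 6 with each array left out. Of the other pathway genes, the 10 for TIP60-si versus control-si became 3 with plain subtraction, 4 with offset 16, 0 with median centring, 1 with scaled arrays and 2 to 11 with each array left out (2 without control-si replicate 2). The 10 for TIP60-si versus USP7-si became 5, 5, 0, 3 and 4 to 13 in the same order of settings. The 0 for USP7-si versus control-si stayed 0 with each array left out. Usp7 in USP7-si versus control-si was -2.15 with scaled arrays (adjusted p = 0.11, limma) and -1.70 on Cy5 arrays alone (adjusted p = 0.052, limma), which no longer passed, and -1.72 to -1.52 with each array left out. Kat5 in TIP60-si versus control-si passed in all 26 and was -1.08 to -0.97 with each array left out. With scaled arrays, TIP60-si versus USP7-si reversed for Pdgfa (0.19 and 0.018), Vegfa MMAB017403 (-0.39), Pdgfrl (0.26), Sparc (0.092), Plcg1 (-0.061), Aldoa (-0.087), Lipe (-0.45), Pnpla2 (-1.49; TIP60-si versus control-si -0.16), Cidec (-1.62) and Col1a1 (0.081), and the cause was not tested. Scaling enlarged the ratios of USP7-si replicate 4 the most, and the part of that array in these reversals was not tested. The 4 member probes beyond 1 log2 unit of the reference in control-si stayed 4 with each array left out. With group means taken out, arrays of the same replicate number correlated at -0.29 to 0.31 in 12 pairs and 1 of 12 arrays correlated best with its own number. No pairing by number was seen in these values, which cannot show how the samples were handled. A fit with the replicate block in place of the dye term called 2, 2 and 5 member probes, and 12, 0 and 12 other pathway genes, when TIP60-si was set against control-si, USP7-si against control-si and TIP60-si against USP7-si. Signals under 2 times background limit 4 of the 22 member probes.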

Other observations

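In USP7-si versus control-si, where none of the other pathway genes passed, the hypoxia response list held 7 of the 16 genes with an unadjusted p below 0.05, among 20 of the 84 measured. Over all gene probes 6.27% had such a p. This was not particular to USP7-si. The list held 7 of 29 such genes between TIP60-si and control-si, where 17.2% of all gene probes had such a p. It held 6 of 30 between TIP60-si and USP7-si, where 20.7% did. The list takes the brightest probe of each gene, unlike those shares, and was not tested as a set. The genes named here were chosen after their values were seen. Egln3, an oxygen-sensing hydroxylase, averaged 2.51 ± 0.29 in USP7-si and 2.90 ± 0.22 in control-si (SD, n = 4 each), a difference of -0.38 ± 0.13 (SE, adjusted p = 0.56, limma) that was 0.31 with arrays scaled to equal spread and -0.22 without USP7-si replicate 4. The glycolytic regulator Pfkfb3 averaged 1.12 ± 0.15 in USP7-si and 1.46 ± 0.22 in control-si, a difference of -0.34 ± 0.096 (adjusted p = 0.39, limma) that shrank to -0.024 with scaled arrays, and Pgk1, a glycolytic enzyme, differed by -0.26 ± 0.080 (adjusted p = 0.49, limma), or by 0.29 with scaled arrays. Cbl, a ubiquitin ligase that targets activated growth factor receptors, averaged -0.08 ± 0.098 in USP7-si and 0.22 ± 0.074 in control-si, a difference of -0.30 ± 0.065 (adjusted p = 0.18, limma).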
